A study of Caenorhabditis elegans with 2 samples.

Results

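Chromosome V of the nematode Caenorhabditis elegans carried 2793 of the 15658 peaks in the pooled list of a ChIP-seq experiment on the tagged homeobox protein CEH-82, and these 2793 peaks are described here. They were taken by position alone, as every peak that the list placed on V, whatever its signal value. The chromosome itself was chosen with earlier results of these data known. The experiment had 1 group of 2 biological replicates, each of whole L4 larvae with males and females pooled, and their age in hours was not given. By the labels, every animal was of strain OP212, with the genotype unc-119(ed3) III; ddEx58. The strain expresses CEH-82 (the product of F45C12.2) with GFP and FLAG at its C-terminal end, and expression in each animal was not measured here. The labels name ddEx58 in the form used for an extrachromosomal array and speak elsewhere of an insertion, so the state and copy number of the transgene were not settled, and the tagged protein may not be present at the level of the endogenous one. Neither ceh-82 nor unc-119 lies on V. Whole animals mix all tissues, so no peak can be given to a cell type. Without an untagged or input sample analysed here, no peak below is shown to be bound by CEH-82.

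In ChIP-seq, chromatin fragments recovered with an antibody are sequenced, and a peak is a stretch where more fragments were recovered than a control gives. Homeobox proteins are DNA-binding regulators of development, and many recognise short sequences rich in A and T. The autosomes of this nematode have gene-dense central regions that recombine little and arms that recombine often. On V, the longest chromosome, the arms are known for large, fast-changing gene families, above all the chemoreceptors, which are G-protein-coupled receptors of sensory neurons.

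The signal value printed for a peak is the score that the authors' peak caller wrote. Its scale is not stated, so it was used only to rank and describe peaks within 1 list. Peaks of the pooled list and of each replicate's list include background, per their deposited names, and the setting at which they were called is not given. Of the 57 peaks of the authors' thresholded list (IDR, irreproducible discovery rate), which are 0.364% of all pooled peaks, 1 was on V. A pooled peak is called strong below when the pooled list ranked it among its 1000 peaks with the greatest signal value, a group that takes 6.39% of all pooled peaks and 135 peaks of V. On V the last peak inside that limit and the first outside it both had a signal value of 6.10.

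Sequences of 6 of the 25 strongest V peaks are shown as examples of small RNA genes at or close to a summit, of the peak upstream of a histone gene and of the word GAGAGA, which are the surroundings described below. Each of these is found at a minority of strong V peaks. Each is the plus strand within 75 bp of the summit, 151 bases in all, read from the RefSeq assembly WBcel235 (the coordinates of ce11). In the first 3, capitals mark the annotated bases of the small RNA gene, which are the snoRNA genes ZK994.7 and C51F7.4 and the snRNA gene T11F9.15 (WBGene00014291). In the fourth, capitals mark the word TATAAA upstream of the histone gene his-37. In the last 2, capitals mark the word GAGAGA. Their nearest coding starts are those of sec-61.G, 243 bp from the summit, and of saeg-1, 5803 bp from it.
ZK994.7, chrV:8500506-8500656: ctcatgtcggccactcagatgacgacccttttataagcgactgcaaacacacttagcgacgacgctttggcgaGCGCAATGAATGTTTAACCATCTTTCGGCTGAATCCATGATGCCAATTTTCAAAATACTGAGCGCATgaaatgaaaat
C51F7.4, chrV:12303563-12303713: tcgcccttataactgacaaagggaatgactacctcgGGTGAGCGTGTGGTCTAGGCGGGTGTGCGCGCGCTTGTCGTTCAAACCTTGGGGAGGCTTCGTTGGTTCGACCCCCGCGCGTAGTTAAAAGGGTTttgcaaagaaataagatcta
T11F9.15, chrV:11980016-11980166: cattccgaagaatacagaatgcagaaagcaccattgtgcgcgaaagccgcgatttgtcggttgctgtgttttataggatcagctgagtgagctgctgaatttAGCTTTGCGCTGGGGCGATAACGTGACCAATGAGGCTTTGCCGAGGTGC
his-37, chrV:9546956-9547106: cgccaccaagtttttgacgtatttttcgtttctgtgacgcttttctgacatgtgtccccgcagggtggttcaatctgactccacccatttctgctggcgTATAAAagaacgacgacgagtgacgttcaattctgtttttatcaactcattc
sec-61.G, chrV:10897311-10897461: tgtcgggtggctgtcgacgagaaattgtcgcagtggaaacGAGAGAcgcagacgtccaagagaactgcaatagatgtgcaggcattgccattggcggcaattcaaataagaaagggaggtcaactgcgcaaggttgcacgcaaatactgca
saeg-1, chrV:10871427-10871577: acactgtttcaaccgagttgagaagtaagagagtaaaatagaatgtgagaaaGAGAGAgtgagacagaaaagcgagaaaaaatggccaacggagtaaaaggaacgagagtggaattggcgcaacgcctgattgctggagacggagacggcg

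The strongest V peak lay over a small nucleolar RNA gene. It covered chrV:8500396-8500765, had a signal value of 22.9 in the pooled list and was the 1 thresholded peak of the chromosome. Its summit was 2 bp downstream of the start of ZK994.7 (WBGene00044958), a gene of the class that guides chemical modification of ribosomal and spliceosomal RNA. ZK994.7 lies inside pxn-1, which encodes a peroxidasin-like protein of the extracellular matrix, 5692 bp from the start of that gene. The overlapping replicate peaks differed in standing: 19.7 in replicate 2, rank 19 of its 8651 peaks, and 2.75 in replicate 1, rank 2082 of its 4561 peaks. The tRNA gene WBGene00023221 had its start 945 bp from the same summit and shares this peak.

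Behind it the signal of V dropped to 15.4, below the lowest value of the thresholded list, 16.4. That second peak, chrV:9546846-9547215, lay 74 bp upstream of the start of his-37, a histone gene, and overlapped peaks of 5.54 in replicate 1 and 11.0 in replicate 2. Its window, printed above, holds TATAAA between the summit and the gene start. A further peak of 10.7 at chrV:9545789-9546158 fell in the coding exon of the histone gene his-41, 118 bp upstream of the start of C50F4.6 and 686 bp upstream of that of his-35, and overlapped peaks of 2.51 in replicate 1 and 10.2 in replicate 2. Histone genes have near-identical copies, and the handling of reads that fit several copies is not known.

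Small RNA genes came again at rank 3 and rank 9 of V. The peak at chrV:12303453-12303822, signal value 15.2, had its summit 39 bp inside the snoRNA gene C51F7.4 and 70 bp upstream of the snoRNA gene C51F7.3, and it overlapped peaks of 5.43 in replicate 1 and 6.60 in replicate 2. The peak at chrV:11979906-11980275, signal value 13.4, had its summit in the noncoding RNA gene C52E4.14 and 27 bp upstream of the snRNA gene T11F9.15. The same summit was 368 bp upstream of snr-4, which encodes an Sm protein of the spliceosome. Its replicate values were 6.93 in replicate 1 and 9.47 in replicate 2, both within the 1000 strongest of their lists. The name T11F9.15 stands for more than 1 gene in the annotation, so the identifier WBGene00014291 is meant here.

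Between these ranks, a peak of 14.8 at chrV:18967657-18968026 lay 13 bp upstream of Y39B6A.43, with 6.23 in replicate 1 and 7.24 in replicate 2. A peak of 14.6 at chrV:1151401-1151770 lay within the long noncoding RNA gene linc-128. The nearest coding start was that of the calmodulin gene cmd-1, 4685 bp away. It had 12.9 in replicate 2 and no peak in replicate 1. A peak of 14 at chrV:7854636-7855005 lay 121 bp upstream of C37C3.9 and overlapped peaks of 5.10 in replicate 1 and 7.17 in replicate 2.

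In the coding sequence of adh-1, an alcohol dehydrogenase gene, a peak of 13.6 had its summit 743 bp downstream of the start and low values in both replicates, 3 in replicate 1 and 2.48 in replicate 2. The peak of 13.4 at chrV:10897201-10897570 lay 243 bp upstream of sec-61.G, which encodes a subunit of the channel that moves proteins into the endoplasmic reticulum, and had 4.55 in replicate 1 and 5.92 in replicate 2. Upstream of efl-1, an E2F-family cell cycle gene, a peak of 13 at 182 bp from the start had 8.76 in replicate 2 and no peak in replicate 1. The start of the F-box gene fbxa-90, 957 bp away, shares that peak. Upstream of snb-1, which encodes synaptobrevin of synaptic vesicles, a peak of 12.8 at 272 bp had 2.54 in replicate 1 and 9.88 in replicate 2. In these last 2 peaks replicate 2 held the higher value, while F57B1.9 (12.8, intron) had 5.79 in replicate 1 and 3.86 in replicate 2.

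The remaining peaks of the first 25 ran from 12.4 to 10.4. They lay 308 bp upstream of F39G3.3, in a coding exon of C39F7.1 (1783 bp downstream of the start of rab-1, a GTPase gene of traffic between endoplasmic reticulum and Golgi), at W06H8.6 (2 peaks), 321 bp upstream of the ribosomal protein gene rpl-38, 346 bp upstream of cept-2 (a phospholipid-synthesis gene) and 5803 bp upstream of saeg-1. Others had as nearest start that of grd-5 (with the summit in a coding exon of idpc-2 and no replicate 1 peak), sqt-3 (a cuticle collagen gene, 1985 bp downstream of the start), tcc-1, ZK856.11 and C47E8.4 (with the summit in an intron of the chaperone gene hsp-90). The sqt-3 peak had the highest replicate 1 value of V, 10.6, with 5.95 in replicate 2.

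Of these 25 peaks, 22 overlapped a replicate 1 peak and 25 a replicate 2 peak. By feature, 13 summits were intergenic, 5 in noncoding RNA genes, 4 in coding exons and 3 in introns. A coding start lay within 500 bp of 13 of them, and all of these 13 summits were on its upstream side. By position, 19 were in the central region of V, 3 in its left arm and 3 in its right arm.

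Signal values on V ran from 2.00 to 22.9 with a median of 2.90, against 2.00 to 56.9 with a median of 2.96 on the other nuclear chromosomes. A value of at least 5 was reached by 287 V peaks, or 10.3% (95% exact binomial interval 9.17 to 11.5, counting error only), and by 12.2% of peaks elsewhere (11.7 to 12.8). At least 10 was reached by 26 V peaks, or 0.931% (0.609 to 1.36), and by 195 peaks elsewhere, or 1.52% (1.31 to 1.74). At least 15 was reached by 3 V peaks and 59 elsewhere. At 15 the shares were 0.107% on V (0.0222 to 0.314) and 0.459% elsewhere (0.350 to 0.592). The intervals of V and of the rest overlapped at 10 and did not overlap at 5 and at 15, and the difference was not tested beyond this. Among the strong peaks the median was 7.39 on V and 7.82 elsewhere.

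V had the lowest peak density of the 6 nuclear chromosomes. It holds 20.9% of the nuclear genome (20.92 Mb) and 17.8% of the pooled peaks (17.2 to 18.4), and the same share was 18.6% in replicate 1 (849 peaks) and 17.8% in replicate 2 (1538 peaks). This came to 133.5 pooled peaks per Mb on V (128.6 to 138.5), against 145.9 on IV, 150.0 on X, 158.6 on II, 173.1 on I and 188.9 on III. The interval of V lay below that of each of the others. V was also last in replicate 1, with 40.58 per Mb (37.89 to 43.40), and in replicate 2, with 73.50 (69.88 to 77.27), but its interval overlapped those of X, IV and II in replicate 1 (42.21, 43.56 and 45.81 per Mb) and that of IV in replicate 2 (79.00 per Mb). Strong peaks on V were 13.5% of the 1000 (11.4 to 15.8). Read depth is unknown for both replicates, so no interval can be given for a single peak's value.

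Within V, peaks were sparser on the arms than in the centre. With the centre taken as chrV:5231046-15693135 and the arms as the sequence outside it, the left arm had 614 peaks, or 117.4 per Mb (108.3 to 127.0), the right arm 538, or 102.8 per Mb (94.34 to 111.9), and the centre 1641, or 156.9 per Mb (149.4 to 164.6). Arms over centre, the density ratio was 0.702 (0.651 to 0.757, a 95% interval from counts). It was 0.750 on II, 0.786 on III, 0.805 on IV, 0.831 on I and 0.985 on X, and 0.793 (0.763 to 0.825) over I to IV together. V had the lowest of the 6 ratios, and its interval overlapped those of II (0.692 to 0.814), III (0.727 to 0.850) and IV (0.744 to 0.871). The difference between chromosomes was not tested.

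Strong peaks were spread more unevenly. The arms held 30 of them (2.87 per Mb; 21 left, 9 right) and the centre 105 (10 per Mb), a ratio of 0.286 (0.184 to 0.432). In each replicate's own list the arms were also sparser: 29.8 and 30.4 peaks per Mb in the left and right arm against 51 in the centre for replicate 1, and 62.5 and 55.6 against 87.9 for replicate 2. Coding genes differed less, with 227 per Mb on the arms and 251 per Mb in the centre. Per 1000 coding genes there were 486 peaks on the arms and 625 in the centre. Noncoding RNA genes other than piRNA genes numbered 464 on the arms and 1343 in the centre, while chemoreceptor genes numbered 575 on the arms and 315 in the centre.

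**Figure D1:**
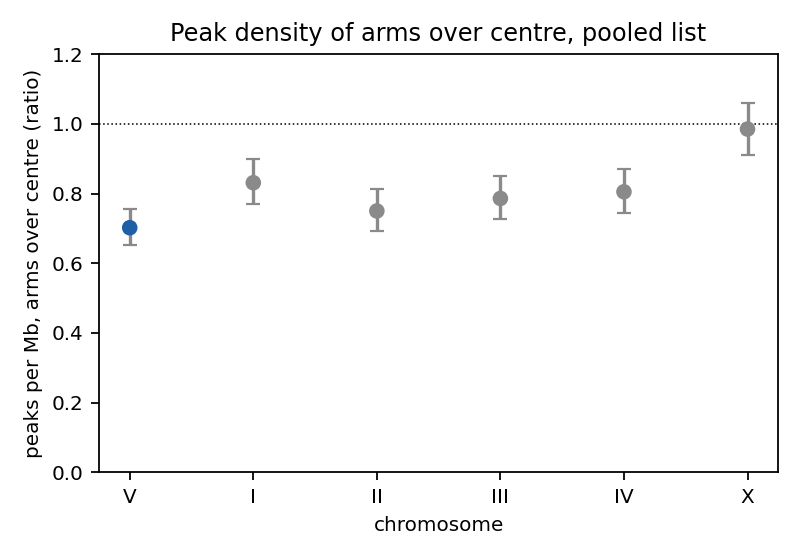
Ratio of pooled peak density (peaks per Mb) on the arms over the centre, for V at the left and the other nuclear chromosomes beside it. Points are ratios and bars 95% intervals from counts; V lies at 0.702 and X at 0.985.

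In bins of 1 Mb, the most peaks, 188 each, were in the bins chrV:6000001-7000000, chrV:10000001-11000000 and chrV:11000001-12000000, whose strongest peaks lay at snb-1, sec-61.G and adh-1. The fewest were 75 in chrV:17000001-18000000, 77 in chrV:2000001-3000000 and 89 in chrV:16000001-17000000. Their strongest peaks lay at tcc-1 (10.6), W02G9.3 (6.49) and efl-1 (13). Those 3 sparse bins held 77, 99 and 89 chemoreceptor genes, against 12, 18 and 25 in the 3 dense bins. Not all bins followed this. The bins chrV:18000001-19000000 and chrV:19000001-20000000 had 107 and 110 peaks with only 13 and 14 chemoreceptor genes, and the first bin had 144 peaks with 59. Both ends of V were richer than the bins next to them on the arms, with 144 peaks in the first bin and 145 per Mb in the last, shorter one.

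Over the 20 full bins, Spearman's rho between the number of peaks and the number of chemoreceptor genes was -0.67, and between peaks and all coding genes -0.12. Bins of 1 chromosome are neighbours that share a library and a base composition, so these are descriptions without a test. The 2 replicates' own peak counts per bin had a rho of 0.84, and both counts rest on the same genome sequence.

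**Figure D2:**
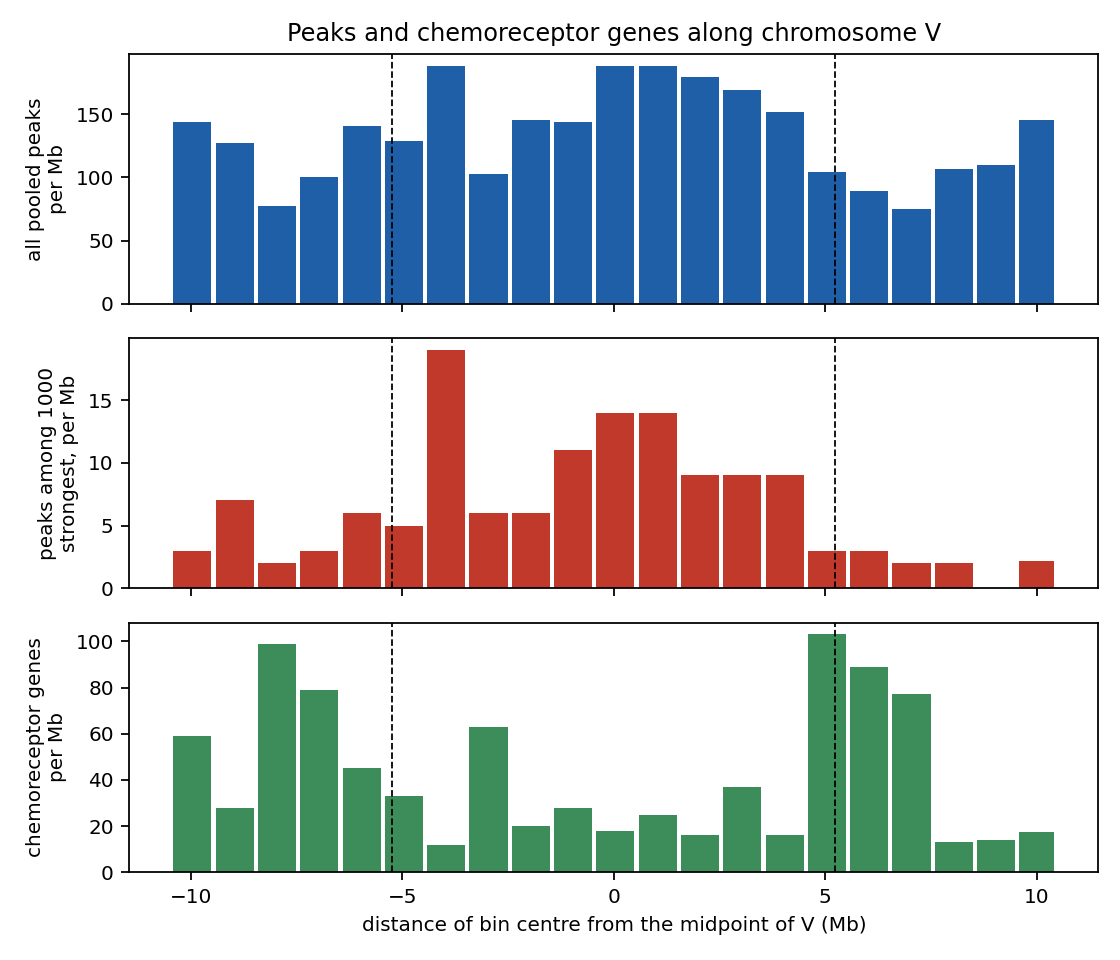
Density per Mb in bins of 1 Mb along V, by distance from the chromosome's midpoint: all pooled peaks (top), peaks among the 1000 strongest (middle) and chemoreceptor genes (bottom). Dashed lines separate arms from centre; the sparsest bins for peaks, at 75 to 89 per Mb, hold 77 to 99 chemoreceptor genes each.

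A smaller share of chemoreceptor genes than of other coding genes had a peak on both arms and in the centre, with intervals that did not overlap in any of the 3 regions. A gene was counted when a pooled summit lay in a window around its start (1000 bp upstream, 500 bp downstream), which held for 987 of the 4994 coding genes of V, or 19.8%. Strong summits met this for 76 genes, or 1.52%. Of 890 chemoreceptor genes on V, 101 had a summit, or 11.3% (9.34 to 13.6), and 4 a strong one. From replicate 1 alone the count was 31, against 315 of all V coding genes, and from replicate 2 alone 48, against 568. In a window from 2000 bp upstream it was 159, against 1397, and in one from 500 bp upstream to 250 bp downstream 55, against 623. The share was 11.5% on the left arm (8.19 to 15.4), 10.3% on the right arm (6.85 to 14.8) and 12.1% in the centre (8.68 to 16.2). Other coding genes had 20% on the left arm (17.4 to 22.8), 17.4% on the right arm (15 to 20) and 23.9% in the centre (22.1 to 25.7). No test of these differences was made. Elsewhere in the nuclear genome 44 of 419 chemoreceptor genes had a summit, 10.5%, against 26.7% of the coding genes there.

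Among the larger chemoreceptor families of V, 23 of 180 srh genes, 16 of 157 str genes, 6 of 95 srw genes, 9 of 79 srx genes and 9 of 68 srbc genes had a summit. Over these 5 families the shares ran from 6.32% in srw to 13.2% in srbc. The 4 with a strong peak were srg-45 (9.45, 648 bp upstream, 4.96 in replicate 1 and 5.27 in replicate 2), srh-16 (7.95, 80 bp upstream), srj-14 (6.56, 256 bp upstream) and srt-28 (6.16, in a coding exon 226 bp downstream). The last 3 had replicate 2 peaks of 6.49, 5.32 and 6.14 and none in replicate 1. Many chemoreceptor genes lie in tandem groups of similar sequence, so single members are uncertain.

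The nuclear receptor and F-box families had shares whose intervals hold the 19.8% of all coding genes. Of the nuclear receptor genes, which encode ligand-regulated transcription factors, 31 of 167 had a summit (18.6%, 13 to 25.3). The 1 strong peak in the windows of this list was nhr-142, 9.23 at 545 bp upstream, with 6.48 in replicate 2 and none in replicate 1; its summit was closer to the start of F44E7.9. Just outside the window, peaks of 9.70 and 9.43 lay in coding exons 1101 bp and 2937 bp downstream of the start of nhr-114, the nearest coding start. Of the F-box and MATH/BTB genes, many of which encode adaptors of ubiquitin ligases, 12 of 90 had a summit (13.3%, 7.08 to 22.1), with strong ones at fbxa-90 (the efl-1 peak) and fbxb-72 (6.26, with the summit in a coding exon of the isocitrate lyase gene icl-1, 3 in replicate 1 and 2.40 in replicate 2).

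Detoxification and lectin genes had the lowest shares of the coding lists shown here. Of the C-type lectin genes 3 of 86 had a summit (3.49%, 0.725 to 9.86; 9 in the window from 2000 bp upstream), of the cytochrome P450 genes 2 of 41 (4.88%, 0.596 to 16.5) and of the UDP-glucuronosyltransferase genes 4 of 42 (9.52%, 2.66 to 22.6; 7 in the wider window). None of these 3 lists had a strong peak, which their sizes and the 1.52% of all coding genes leave uninformative. The interval of the UDP-glucuronosyltransferase genes holds the 19.8% of all V coding genes, and those of the other 2 lists lie below it. From replicate 2 alone the counts were 3, 2 and 5 in the same order, against 568 of 4994 coding genes of V. From replicate 1 alone they were 1, 0 and 1, against 315. Elsewhere in the nuclear genome the shares were 12.3%, 15.2% and 28.0%, over 154, 33 and 25 genes, against 26.7% of all coding genes there.

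Ribosomal protein genes stood at the other end. Of the 8 on V, 7 had a summit (87.5%, 47.3 to 99.7) and 3 a strong one, against 65 of 73 elsewhere (89%). The strongest was at rpl-38, 11.4 with 3.58 in replicate 1 and 8.69 in replicate 2. The neighbours rpl-39 and rps-30 share 1 peak of 7.91 between their starts, with 4.65 in replicate 2 and none in replicate 1. The other 4 were weaker, with 4.46 at rpl-28, 3.28 at rps-16, 2.39 at rpl-11.1 and 2.32 at rps-27. Replicate 1 had a peak at 4 of the 8 genes and replicate 2 at 5, against 315 and 568 of all 4994 coding genes of V.

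Translation factor and proteasome genes form lists of 4 and 5 on V, and the intervals of their shares, 19.4 to 99.4% and 14.7 to 94.7%, reach down to or below the 19.8% of all coding genes. Summits were found at 3 of 4 translation factor genes, namely eef-1G (5.15), eif-2Bdelta (3.73) and ife-3 (3.36), and at 3 of 5 proteasome genes, namely rpt-1 (3.85), pas-1 (3.10) and rpt-2 (2.12), none of them strong. Of the heat shock genes 2 of 9 had one, at the mitochondrial chaperone gene hsp-6 (3.74) and at hsp-90 (3.29). The histone list had 3 of 27 (11.1%, 2.35 to 29.2), against 22.2% of 45 elsewhere, and its interval holds the 19.8%. These 3 genes are his-37, his-41 and his-35 described above, and his-41 and his-35 share the peak of 10.7.

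Among the cuticle collagens, which the epidermis secretes at each moult, 12 of 33 had a summit (36.4%, 20.4 to 54.9), against 37.1% of 140 elsewhere. The strong one in a window was col-142, 7.97 at 65 bp upstream, with 3.14 in replicate 1 and 6.20 in replicate 2. Next came col-139 (5.20, with 2.67 in replicate 1 and 4.49 in replicate 2), col-42 (4.84) and col-161 (4.04). At the start of sqt-3 itself the summit in the window had 2.52, the strong peak lying beyond it. A peak of 8.27 likewise lay 693 bp downstream of the start of col-145, outside its window, where the summit counted had 3.12. Homeobox genes, the class of CEH-82, had 4 of 15, at ceh-51 (2.94), ceh-27 (2.51), ceh-24 (2.50) and ceh-22 (2.42). These 4 peaks overlapped no peak of either replicate, and the share, 26.7% (7.79 to 55.1), has an interval that holds 19.8%.

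The tissue marker lists are too short on V to be set apart from the 19.8% of all coding genes. Of 5 muscle markers, unc-112 (7.35 at 120 bp upstream, 5.24 in replicate 2) and unc-60 (6.54 at 194 bp upstream, 9.73 in replicate 2) had strong peaks, with none in replicate 1, and the other 3 had no summit in the window. They encode a kindlin-type protein of muscle attachments and an actin-depolymerising factor. The interval of 2 of 5 ran from 5.27% to 85.3%. Of 3 neuron markers, snb-1 had the peak of 12.8, and the interval of 1 of 3 ran from 0.840% to 90.6%. The intestinal protease genes asp-1 (4.36) and cpr-1 (2.61) were 2 of 3 markers of that tissue. Both epidermal markers, dpy-11 (3.55) and sqt-3, had a summit. Of the intestinal and epidermal markers elsewhere 0 of 3 and 0 of 3 had one, and no germline marker of the list lies on V.

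**Figure D3:**
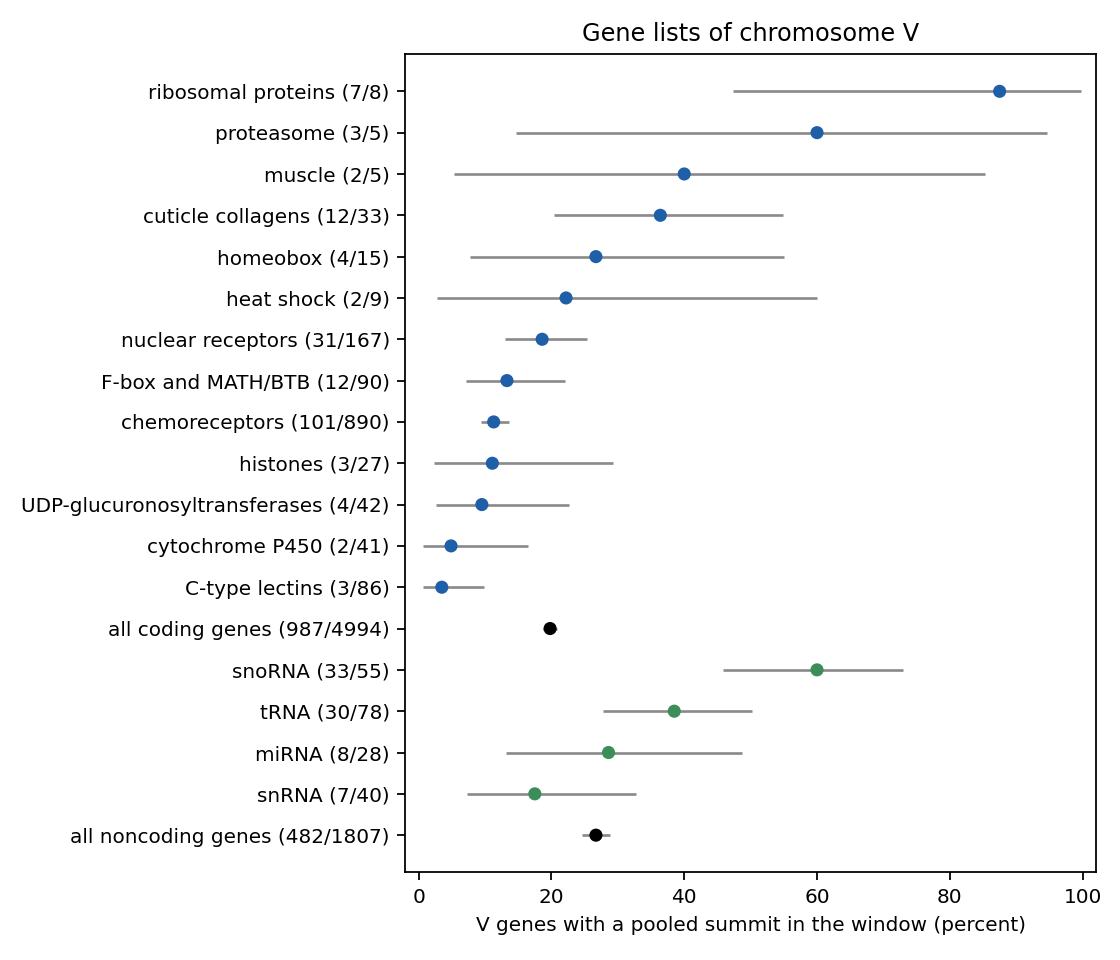
Percent of the V genes of each list with a pooled summit in the window around the gene start (1000 bp upstream, 500 bp downstream), for lists of 5 or more V genes, without the rRNA and spliced leader genes. Points are shares, lines 95% exact binomial intervals, blue coding lists, green noncoding lists and black all genes of the class; ribosomal protein genes reach 87.5% and snoRNA genes 60%, and C-type lectins 3.49%.

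Noncoding RNA genes of V, without piRNA genes and pseudogenes, had a summit at 482 of 1807 (26.7%) and a strong one at 52 (2.88%). SnoRNA genes had the highest share, 33 of 55 (60%, 45.9 to 73.0), 8 with a strong summit in the window, and 51.5% of 291 elsewhere. Besides ZK994.7, C51F7.4 and C51F7.3, W06H8.17 had a strong peak of 10.7 at 470 bp upstream. From replicate 1 alone 8 of the 55 had a summit, against 157 of all 1807 noncoding genes of V. From replicate 2 alone 27 had one, against 305.

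Transfer RNA genes followed with 30 of 78 (38.5%, 27.7 to 50.2), 4 with a strong summit in the window, against 45.7% of 534 elsewhere. Apart from the one that shares the ZK994.7 peak, these 4 were WBGene00014331, WBGene00023144 and WBGene00023095. WBGene00014331 had 7.63 at 99 bp downstream of its start, with 5.11 in replicate 1 and 4.08 in replicate 2. WBGene00023144 had 7.32 at 688 bp upstream, with 5.42 in replicate 2. WBGene00023095 had 6.21 at 250 bp upstream, with 2.16 in replicate 1 and 3.84 in replicate 2. The snRNA genes had 7 of 40 (17.5%, 7.34 to 32.8), against 34 of 89 elsewhere (38.2%), with strong peaks at WBGene00014291 and at T08G5.11 (9.21, 2.17 in replicate 1 and 8.29 in replicate 2). Many snRNA and tRNA genes have near-identical copies, so single members are uncertain.

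Of 28 microRNA genes on V 8 had a summit (28.6%, 13.2 to 48.7), against 26.7% of all V noncoding genes and 33.5% of 233 microRNA genes elsewhere. The highest were mir-241 (6.36, 470 bp upstream, 5.81 in replicate 2) and mir-48 (6.01, with summits of 2.96 in replicate 1 and 5.35 in replicate 2 in its window). Both are let-7 family microRNAs of the heterochronic pathway, which times larval development. mir-357 and mir-358 share a peak of 3.78.

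No peak lay on the tandem array of 5S rRNA and SL1 spliced leader genes, chrV:17115903-17132107, which holds 14 annotated rrn-4 genes and 12 sls-1 genes. The count was 0 in the pooled list and in each replicate's list. The nearest pooled peaks were 5331 bp to its left (3.05) and 50400 bp to its right (2.37). Spliced leader genes elsewhere had a summit at 13 of 18. The genes of the array are copies in 1 tandem block, so they are not independent members and no limit is given for the 0. The handling of reads that fit several copies is not known, and its part in the empty array was not tested.

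A somewhat larger share of V summits than of V bases lay near coding starts. Within 500 bp of a coding start lay 750 of 2793 summits, 26.9% (25.2 to 28.5), and 22.7% of all V bases. On the other nuclear chromosomes 23.6% of summits (22.9 to 24.4) and 17.7% of bases lay as close. Among the strong V peaks it was 54 of 135, 40% (31.7 to 48.8), with 44 upstream and 10 downstream of the start, and elsewhere 36.7% (33.5 to 40.1). In the bin from 250 bp upstream to the start lay 19.3% of strong V summits, 7.91% of all V summits and 5.75% of V bases. Many gene starts are annotated where trans-splicing joins a leader to the transcript, so that a promoter can lie further upstream than these distances say.

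**Figure D4:**
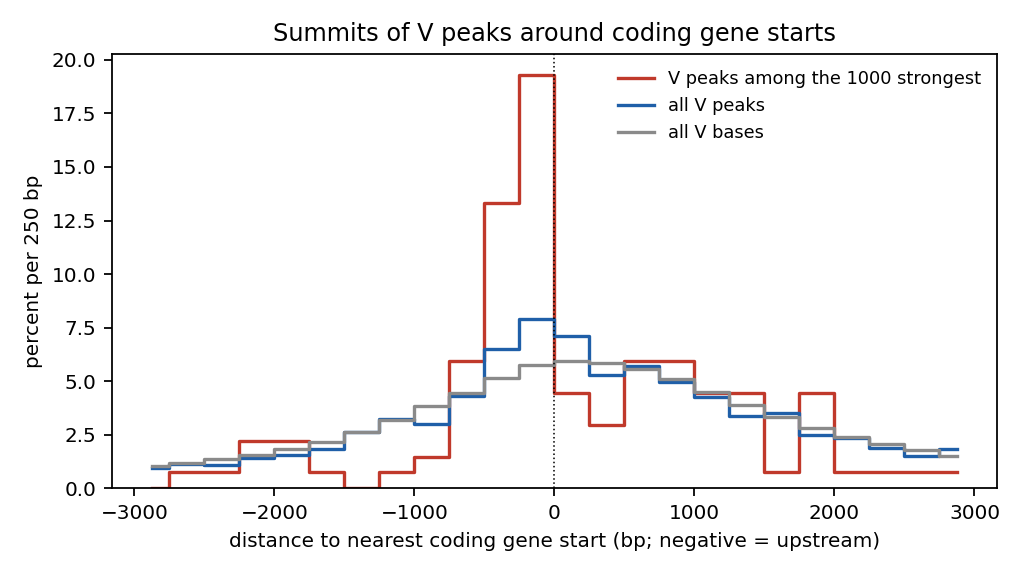
Percent of summits or bases per 250 bp of distance to the nearest coding gene start, negative distances upstream, for strong V peaks (red), all V peaks (blue) and all V bases (grey). Strong summits are concentrated just upstream of the start, at 19.3% in the last 250 bp, against 5.75% of bases.

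By annotated feature, the interval of all V summits held the share of bases for coding exons and introns. The interval lay below the share of bases for intergenic sequence and pseudogenes, and above it for noncoding RNA genes and UTRs. Intergenic sequence held 33.2% of all V summits (31.5 to 35) and 45.2% of strong ones (36.6 to 54), against 35.7% of bases. Introns held 27.0% and 13.3% (8.10 to 20.3), against 28.5% of bases. Coding exons held 27.1% and 20.7% (14.2 to 28.6), against 26.7% of bases. Noncoding RNA genes held 2.65% of all (2.09 to 3.31) and 8.89% of strong summits (4.68 to 15), against 1.07% of bases, and 3' UTRs 5.26% (4.46 to 6.16) and 8.15%, against 2.84% of bases. The 5' UTRs held 2.69% of all (2.12 to 3.35) and 1.48% of strong summits (0.180 to 5.25), against 1.59% of bases. Pseudogenes, more frequent in V bases (3.67%) than elsewhere (1.46%), held 2.11% of all V summits (1.61 to 2.72) and 2.22% of strong ones (0.461 to 6.36). These differences were not tested.

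The sequence at strong V summits was richer in G and C than V as a whole, and a larger share of windows held GAGAGA; neither difference was tested. In windows of 101 bases centred on the summit, and counting the word on either strand, GAGAGA was in 25 of 135 strong windows (18.5%). It was in 21 of 270 windows centred 250 bp to either side of them (7.78%), in 7.88% of all V summit windows, in 6.97% of windows at V coding starts and in 4.78% of all V windows of that length. G and C made up 42.7% of the bases of the strong windows, 38.1% of those beside them and 35.4% of all V windows. The part of base composition in the count was not tested.

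The homeobox-type word TAATTA was in 3 strong windows (2.22%), 2.96% of those beside them, 4.40% of all summit windows and 4.70% of all V windows. TATAAA was in 11.9% of strong, 10.4% of adjacent and 11.4% of all V windows. GAANNTTC, a word of heat shock elements, was in 3.70%, 5.93% and 7.63% of the same windows. GGTTCGA, a word of tRNA-gene internal promoters which the printed C51F7.4 window also holds, was in 1.48%, 0.741% and 0.801%. A word found or missed is only a description of these letters.

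The replicates shared few V peaks with each other. Of the pooled V peaks 595 overlapped a replicate 1 peak by at least 1 bp, 21.3% (19.8 to 22.9), against 21.2% on the other nuclear chromosomes and 21.3% of all pooled peaks. A replicate 2 peak was overlapped by 1157, or 41.4% (39.6 to 43.3), against 43.6% elsewhere and 43.2% of all. Both were overlapped by 187, or 6.70% (5.80 to 7.69), against 7.04% elsewhere and 6.98% of all. Neither was overlapped by 1228, or 44.0%, against 42.2% elsewhere. From the replicates' side, 571 of 849 V peaks of replicate 1 (67.3%) and 1116 of 1538 of replicate 2 (72.6%) overlapped a pooled peak. Of replicate 1's V peaks 160 (18.8%) overlapped replicate 2, and of replicate 2's V peaks 163 (10.6%) overlapped replicate 1.

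Recovery went up with rank. For the 25 strongest V peaks 88.0% overlapped both replicates. For ranks 26 to 100, with signal values from 10.4 to 6.56, the share was 49.3%, for ranks 101 to 500 it was 16.0%, and for ranks 501 to 2793, all at or below 4.24, it was 2.79%. The pooled list was made from the reads of both replicates, so these lists are not independent. Among strong V peaks 81 of 135 overlapped replicate 1 (60%, 51.2 to 68.3) and 123 replicate 2 (91.1%, 85.0 to 95.3), against 52.9% and 92.9% of strong peaks elsewhere. The 1 strong V peak in neither list, chrV:11313983-11314352 with 7.36, had its summit in an intron of cutl-18, 90 bp upstream of the snoRNA gene T03F7.8.

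Over the 187 V peaks in both replicates, the replicate values had a Pearson r of 0.32 on the log2 scale and a Spearman rho of 0.28. Over the 70 strong ones these were 0.063 and 0.045. The strong peaks were chosen by a signal made from the reads of both replicates, and such a choice can itself lower these 2 values. They therefore do not measure how well the replicates match at strong peaks. No test is given, because peaks of 1 pair of libraries are not independent and a replicate peak can overlap more than 1 pooled peak. Replicate 2 had the higher number at 126 of 187, and the 2 scales may differ. Of the 187, 28 overlapped a peak among the 1000 strongest of both replicates, a count not made on the other chromosomes. Some of the 28 overlap the same replicate peaks, so they are not 28 separate sites. From the replicates' side, 20 of 161 such V peaks of replicate 1 overlapped one of replicate 2, and 21 of 145 the other way. The 28 include peaks at his-37, C51F7.4, Y39B6A.43, C37C3.9, sec-61.G, snr-4, F39G3.3, rpl-38, sqt-3, W06H8.6 and tcc-1. Left out are the peak of 22.9 at ZK994.7 and that of 12.8 at snb-1. Their replicate 1 values of 2.75 and 2.54 were close to the median of the replicate 1 list, 2.66. Another peak with snb-1 as nearest coding start, chrV:6659023-6659392 with 8.70, is among the 28.

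**Figure D5:**
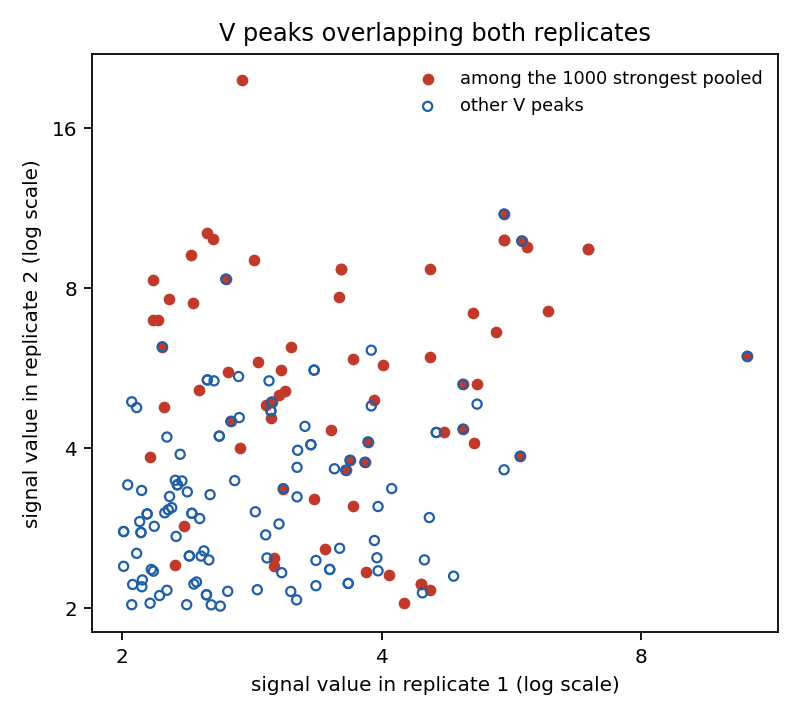
Signal value in replicate 2 against signal value in replicate 1 (both axes log scale) for the 187 V peaks that overlap a peak of each replicate. Filled red points are peaks among the 1000 strongest pooled peaks and open blue points the others; points coincide where 1 replicate peak overlaps 2 pooled peaks, and the highest replicate 2 value, 19.7, stands at a replicate 1 value of 2.75.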

How the data were processed

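The labels describe ChIP-seq from whole L4 larvae in 2 biological replicates. The signal value of each peak is a score that the authors deposited in narrowPeak lists on ce10 and ce11, per the labels and file names: 1 list per replicate, 1 from both replicates pooled and 1 thresholded by IDR. Not given in the sources used here were the aligner, caller, thresholds and handling of repeats; the control was not analysed here. V peaks were 370 bp wide in the pooled list, 470 bp in replicate 1 and 416 bp in replicate 2, so shorter distances are poorly resolved. Depth is unknown. Per-sample columns left unused numbered 0.

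Here, peaks were placed with Python 3.11.15, numpy 2.4.6, pandas 2.3.3 and scipy 1.17.1, and drawn with matplotlib 3.10.9, against Ensembl release 115 (WBcel235, which has the coordinates of ce11) and RefSeq sequence. Overlap meant at least 1 bp. A summit in several features counted once, with coding exons first, then UTRs, noncoding RNA genes, pseudogenes and introns. Intervals are 95% exact binomial (shares) or exact Poisson (densities) and cover counting error only. There was 1 group, so no test between conditions was made. The code was tested on simulated data. The members, gene lists and settings were chosen with earlier results of these data known. Named genes are those nearest the 25 strongest V peaks, up to 4 members of highest signal per list with a strong peak, the thresholded V peak, the strongest peak in neither replicate and the 3 densest and 3 sparsest bins. Other named genes, such as the members of small lists, were chosen after their values were seen.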

Additional observations from a re-analysis of the deposited data

How the results depend on the processing

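Leaving out a replicate gave a V share of all peaks of 17.8% to 18.6%, a V share of the 1000 strongest of 14.5% to 16.1%, an arms-over-centre ratio of 0.590 to 0.672 and a share of summits near coding starts of 25.3% to 27.4%. The ratio was 0.769 with a centre from 6 Mb to 17 Mb and 0.286 for strong peaks. Overlap of at least 50% left 19.1% of V peaks in replicate 1 and 37.7% in replicate 2, and strong peaks had 60% and 91.1%. Summits near coding starts were 15% within 250 bp (11.7% of bases), 44.9% within 1000 bp (41.7% of bases) and 40% for strong peaks within 500 bp. Coding genes with a summit were 623 from 500 bp upstream to 250 bp downstream, and 76 for strong peaks. The ce10 lists, 500 or 2000 strongest peaks, a narrower centre moved no other value beyond its interval, and the window from 2000 bp upstream gave 1397 coding genes, within 1.5 times of 987. Of 21 gene lists, 14 kept their count within 1.5 times in the narrower window, 17 in the wider one, 14 from replicate 2 alone and 5 from replicate 1 alone, which has fewer peaks. In the wider window the counts that moved by over 1.5 times were chemoreceptors (159, against 101), F-box and MATH/BTB genes (20, against 12), C-type lectins (9, against 3) and UDP-glucuronosyltransferases (7, against 4). The 2 replicate-alone counts of the lists were chosen after seeing the data. No paired analysis was possible because there is 1 group. Unknown depth and the missing control limit every value.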

Other observations

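Most V summits, 1932 of 2793, had no other summit within 1000 bp. The others came in runs, of which 268 held 2 summits. The share in runs was not counted on the other chromosomes and was not tested against the peak density of V. With gaps of at most 1000 bp, the largest run held 9 summits and 5 strong peaks at chrV:6224608-6229941, at the start of W06H8.6 and over the noncoding genes W06H8.12, W06H8.13, W06H8.14, W06H8.16 and the snoRNA gene W06H8.17. Its signal values ran from 3.05 to 11.7. Of its 9 peaks 6 overlapped replicate 1 and 7 replicate 2. A run of 7 summits over chrV:9545789-9548878 covered the histone genes his-41 and his-37, C50F4.6 and nstp-10, with values from 2.05 to 15.4. Other runs of 7 lay at smut-1 and crt-1 (which encodes the chaperone calreticulin of the endoplasmic reticulum), at R09B5.11, and at gnrr-2 and nxf-1 (an mRNA export factor gene), with highest values of 6.17, 4.30 and 5.36. These runs were chosen after their values were seen. In all, 861 V peaks (30.8%) had another summit within 1000 bp and 360 (12.9%) overlapped another V peak, so that many V peaks are not separate sites. The median gap between neighbouring summits was 4069 bp.

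The longest stretch of V with no pooled summit ran over 257 kb, chrV:2307866-2564624, on the left arm. It holds 59 annotated coding genes by their starts, but only 37 distinct names: 22 names stand there 2 times, at a median distance of 108 kb, so that much of the stretch is annotated as a duplicated segment. Of its 19 chemoreceptor genes 16 are such copies, among them srd-61, srd-73, srt-1 and str-267, and its 2 C-type lectin genes are both clec-209. These names were chosen after their values were seen. Neither replicate had a summit inside it, with 0 in replicate 1 and 0 in replicate 2. The handling of reads that fit both copies is not known, and its part in the empty stretch, which lies in a bin with 77 peaks, was not tested.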
